A study of Mus musculus with 4 samples.

Results

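Slit1, Slit2, Slit3, Robo1, Robo2, Ntng1, Ntng2, Unc5b, Unc5c and Dcc are axon guidance ligands and receptors that were chosen by symbol, and they make up 10 of the 43348 genes in the deposited matrices. All 10 symbols were found in the files. The cells are TdTomato-sorted cells of the Nkx2.1 lineage from frontal cortex and hippocampus of juvenile mice aged 18 to 20 postnatal days, of both sexes, measured by 10x Genomics single-cell RNA-seq. The study asked how early loss of the NMDA receptor affects interneurons born in the medial ganglionic eminence, and sampled them in both regions. WT animals carried Nkx2-1-Cre, the Ai14 TdTomato reporter and unrecombined wild-type Grin1. Null animals, their littermates, carried the same Cre and reporter with Grin1 fl/fl, so that the gene was lost in Cre-expressing cells and their progeny. The labels name no strain background. Each library pooled cells from several animals, so that the spread between animals within a library is not known. All tissue was taken through buffers with tetrodotoxin, APV and actinomycin D, and the same Cre and reporter were present in every group.

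There are 10 libraries. Cortex and hippocampus each gave 3 WT and 2 null libraries, and the 10x chemistry was version 2 for replicate 1 of each group and version 3 for the rest. Total UMIs per library ran from 1488601 in cortical null replicate 1 to 47338167 in hippocampal null replicate 2. Median UMIs per cell were lowest in hippocampal WT replicate 2, at 1479, and highest in hippocampal null replicate 2, at 9763. Any pair of libraries shared between 0 and 12 cell barcodes. Of the 26201 cells kept, 11051 were interneurons in 4 classes named from markers: SST, TH, PVALB and neurogliaform (NGFC). Interneurons were not the only cells sorted, since oligodendrocytes, their precursors (OPCs and committed precursors), glutamatergic cells, astrocytes, microglia and other cells also formed clusters. Hippocampal WT replicate 2 stood apart by depth: 99.2% of its NGFC cells fell in cluster 16 and 64.0% of its SST and TH cells in cluster 10, both shallow clusters.

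Slit proteins are secreted ligands that bind Robo receptors and mostly repel growing axons and migrating neurons. Netrins act through Dcc, which mediates attraction, and through Unc5 receptors, which turn the response to repulsion, while netrin-G proteins are anchored to the membrane and bind partners of the NGL family on other cells. In the embryonic forebrain Slit and Robo signalling is known for its part in the migration and branching of interneurons.

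Levels are given as CPM, the UMIs of a gene divided by all UMIs of a class in a library and scaled by 1e6. A level of 1 gene cannot be compared with that of another, because no length or capture correction was applied. Slit2, the ligand with the clearest pattern among interneurons, had a mean WT level of 145 CPM in TH cells (SD 8.61, 6 libraries). In the single TH libraries the lowest level was 133.5, the median 146.4 and the highest 155.4 CPM. The mean in PVALB cells was 62.6 CPM (SD 9.24), with a range of 53.7 to 77.4. SST cells without TH cells had a mean of 10.9 CPM (SD 5.50, range 6.81 to 21.5), and NGFC cells 2.39 CPM (SD 1.69, range 0 to 4.70). These 4 ranges do not overlap, so with the classes as named here the order of the Slit2 levels was TH, PVALB, SST and NGFC. TH cells here are cluster 11 alone. Cluster 9, which was named SST but has the TH marker Crh as its most specific gene, had 14.4 CPM of Slit2, so the TH level would be lower in a class that held both. Cluster 9 holds 1104 cells and cluster 11 holds 912, so whether TH lies above PVALB cells depends on where cluster 9 is placed. At least 1 Slit2 UMI was found in 56.1% of WT TH cells (Wilson 95% interval 52.2 to 59.99%, median 6200 UMIs) and in 1.90% of oligodendrocytes (1.58 to 2.28%, median 3488 UMIs). Oligodendrocytes, the class compared here, had 2.60 to 8.25 CPM of Slit2 over the WT libraries, and whether they express it was not tested. With cells thinned to 1000 UMIs the shares were 13.6% and 0.362%, so the TH share lies above the oligodendrocyte share at equal depth.

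Within PVALB cells Slit2 differed between clusters. In cluster 1, the main PVALB cluster, Slit2 was at 77.4, 80.3 and 60.1 CPM in the cortical WT libraries and 77.7, 69.8 and 90.2 CPM in the hippocampal ones. In cluster 25, which has Pthlh among its 10 most specific genes, the same libraries gave 9.82, 2.39 and 2.84 CPM in cortex and 16.7, 35.1 and 14.2 CPM in hippocampus. Every WT library of cluster 1 lay above every WT library of cluster 25. Choroid plexus cells had 61.5 CPM (SD 43.0, 3 libraries), glutamatergic cells 24.5 and astrocytes 21.8, with library ranges of 32.7 to 111, 0 to 35.9 and 0 to 56.2 CPM.

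Slit1 and Slit3 are the other 2 Slit ligands. Slit1 was highest in glutamatergic cells, at 20.7 CPM (SD 22, 5 libraries), and had means of 8.06, 6.79, 5.20 and 1.62 CPM in TH, SST, PVALB and NGFC cells. With cells thinned to 1000 UMIs, the pooled WT level of Slit1 in PVALB cells was lower, at 2.56 CPM. The glutamatergic libraries ran from 0 to 57.6 CPM and overlapped those of TH, SST and PVALB cells. Slit3 also had its highest mean in glutamatergic cells, at 55.5 CPM (SD 42.6), with libraries from 4.95 to 113 CPM. The mean was 15.1 in choroid plexus (0 to 32.7), 14.5 in TH (SD 14.3), 8.10 in PVALB, 4.38 in SST and 2.34 in NGFC cells. Neighbours in that order overlap in their library values. The highest TH library, hippocampal WT replicate 2 at 41.8 CPM, held 4 Slit3 UMIs. In SST cells (here with TH cells) the Slit3 level rested on 11 to 63 UMIs per WT library.

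Ntng1, a membrane-anchored netrin-G1, was highest in glutamatergic cells with a mean of 96.5 CPM (SD 50.3, 5 libraries, 56.7 to 184). The value of 56.7 CPM is also the highest glutamatergic value of Dcc, so it may rest on few UMIs. Among interneurons SST cells had 37.9 CPM (SD 17.2, range 19.0 to 66.1), PVALB cells 16.6 (SD 4.11), TH cells 15.9 (SD 6.48) and NGFC cells 3.76 (SD 3.47). SST and PVALB libraries overlap only between 19.0 and 20.3 CPM, and PVALB and TH cells do not differ beyond their spread. Among WT SST clusters pooled over libraries, Ntng1 ran from 6.37 CPM in cluster 26 to 63.6 CPM in cluster 10 and 69.3 CPM in cluster 9. Clusters are mixed with libraries here, since 227 and 53 of the 301 WT cells of cluster 26 came from replicate 1 of cortex and hippocampus and 534 of the 796 of cluster 10 from hippocampal replicate 2. The class of cluster 9 is not settled: Crh, a TH marker, was its most specific gene, and the cluster led by Crh and Tac2 at resolution 1.4 was named TH. Counted as TH cells, cluster 9 would lower the SST level and raise the TH level, so the order of SST and TH cells depends on its name. Cluster 24, which carries SST markers but has Oxt, Avp, Isl1 and Lhx8 among its 10 most specific genes and was given no name, had 232.5 CPM, the highest of the clusters with at least 50 WT cells.

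Ntng2, netrin-G2, was not detected in any WT interneuron. In SST, TH, PVALB and NGFC cells there were 0 UMIs, with upper ends of the exact Poisson 95% interval of 0.124, 0.881, 0.311 and 0.584 CPM. Oligodendrocytes had 26 Ntng2 UMIs (1.04 CPM) and glutamatergic cells 9 (3.02 CPM, exact Poisson 95% interval 1.38 to 5.73). Ntng2 therefore entered no test.

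**Figure D1:**
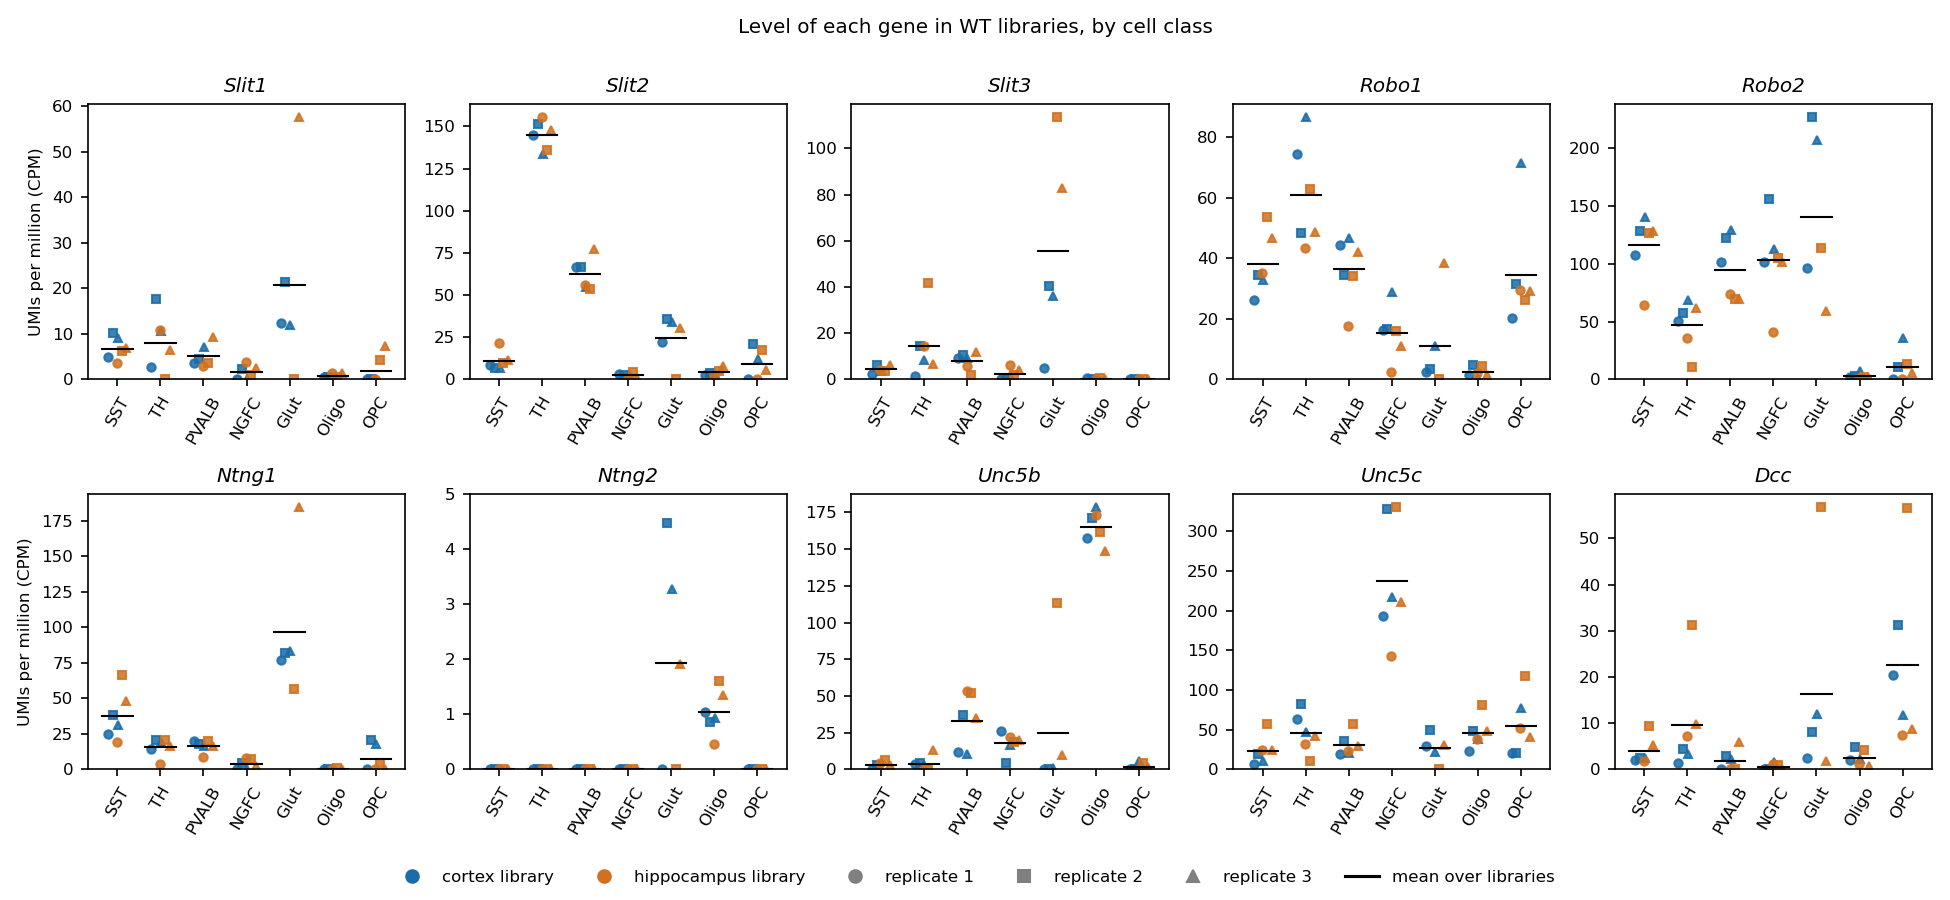
Level of each gene in CPM in 7 cell classes of WT libraries, with a point for each library (colour for region, shape for replicate) and a black line at the mean. Slit2 stands highest in TH cells (cluster 11 alone, mean 145 CPM), Unc5c in NGFC cells (237) and Unc5b in oligodendrocytes (165).

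Robo1 and Robo2 are receptors for the Slit ligands and lie on the same chromosome, Robo1 at chr16:72308306-73046095 and Robo2 at chr16:73891839-74411825 (GRCm38). Among interneurons Robo2 had means of 115.9 CPM in SST (SD 27.3), 103 in NGFC (SD 36.6), 94.3 in PVALB (SD 27.2) and 47.4 in TH cells (SD 21.2). SST, NGFC and PVALB libraries overlap. TH libraries, at 10.4 to 68.4 CPM, overlap those of SST cells (from 64.5 CPM) and NGFC cells (from 41.1 CPM). The highest TH library lay just below the lowest PVALB library (69.2 CPM). Glutamatergic cells had 140.7 CPM (SD 72.7), astrocytes 42.5 (SD 19.6) and oligodendrocytes 2.69 (SD 2.18). The Chodl-led SST cluster 23 stood apart with 19.4 CPM of Robo2 in WT cells, while the other SST clusters ran from 108.9 to 180.0 CPM. Cluster 9 is among those others. The Robo2 level of TH cells, here cluster 11 alone, would thus be higher in a class that held both. Robo1 had means of 60.7 CPM in TH (SD 17.1), 38.2 in SST (SD 10.1), 36.6 in PVALB (SD 10.6) and 15.2 in NGFC cells (SD 8.62). Neighbours in that order overlap in their library values. PVALB cluster 25 held 2.94 CPM of Robo1 against 46.4 CPM in PVALB cluster 1, so the Robo1 level of PVALB cells depends on their mix of clusters. That of TH cells rests on cluster 11 alone.

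Unc5b and Unc5c are receptors that pair with Dcc or act alone to mediate repulsion by netrin. Unc5b was highest in oligodendrocytes, with a mean of 165 CPM (SD 11, 6 libraries, 149 to 179). Precursors had far less, at 1.96 CPM in OPCs and 2.94 CPM in committed oligodendrocyte precursors. At least 1 Unc5b UMI was found in 42.6% of oligodendrocytes (41.4 to 43.9%, median 3488 UMIs) and in 0.351% of OPCs (0.120 to 1.03%, median 1347.5 UMIs), or 15.3% and 0.170% at 1000 UMIs per cell. Endothelial cells gave 106 CPM in the 1 library with enough cells. Among interneurons the WT means were 33.3 CPM in PVALB (SD 18.6), 18.1 in NGFC (SD 7.31), 4.04 in TH (SD 4.79) and 3.07 in SST cells (SD 2.35).

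The Unc5b level of PVALB cells lay in cluster 25. There the cortical WT libraries had 118, 219.9 and 159 CPM and the hippocampal ones 150.2, 105 and 149 CPM. In cluster 1 the same libraries had 1.09, 3.18 and 1.20 CPM and 0, 15.9 and 12.7 CPM. The 2 clusters do not overlap in any WT library. These levels describe clusters and were not tested.

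Because oligodendrocytes carry so much Unc5b, the oligodendrocyte markers in each interneuron sum were read beside it as the summed level of a marker list. In SST cells (with TH cells) that level was 741, 1341 and 704 CPM in cortical and 2430, 3510 and 1649 CPM in hippocampal WT libraries, against 74339 to 143190 CPM in the WT oligodendrocytes themselves. At the ratio of Unc5b to these markers in the oligodendrocytes of the same library, they would carry 0.816, 2.13 and 0.951 CPM of Unc5b in cortical SST cells and 3.10, 7.63 and 1.89 CPM in hippocampal ones. The measured Unc5b in those SST sums was 0.948, 3.23 and 0.894 CPM and 3.68, 6.40 and 4.90 CPM, so in 2 of 6 libraries it was at or below the level carried by the markers. In PVALB cells the marker ratio gave 0.200, 2.42 and 0.645 CPM in cortex against a measured 12.0, 37.1 and 10.4, and 2.59, 8.40 and 3.12 CPM in hippocampus against 53.1, 52.0 and 35.2. In NGFC cells it gave 2.86, 0.225 and 3.42 CPM in cortex against 26.3, 4.72 and 16.8 measured, and 2.78, 12.7 and 1.08 CPM in hippocampus against 21.9, 18.8 and 20.4. Unc5b in PVALB and NGFC cells was above that level in all 6 WT libraries of each class.

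Unc5c was highest in NGFC cells, at a mean of 237 CPM (SD 76.0, 6 libraries), with a lowest value of 143, a median of 214 and a highest value of 331 CPM. The next means were those of cycling cells at 67.1 (SD 38.9), OPCs at 54.7 (SD 37.3), TH cells at 46.5 (SD 24.8) and oligodendrocytes at 46.2 (SD 19.6), which overlap one another. PVALB cells had 31.0 (SD 14.2) and SST cells 23.5 CPM (SD 17.9). The lowest NGFC library lay above the highest library of every other class. Unc5c UMIs were seen in 52.9% of WT NGFC cells (50.2 to 55.5%, median 3449 UMIs) and in 0.478% of microglia (0.0845 to 2.66%, median 1096 UMIs), or 21.4% and 0% at 1000 UMIs per cell. Dcc, the netrin receptor that Unc5 proteins pair with, was low throughout, with 22.7 CPM in OPCs (SD 18.8), 16.2 in glutamatergic cells (SD 23), 11.4 in cycling cells, 9.57 in TH (SD 11.1), 3.91 in SST (SD 2.91), 1.84 in PVALB and 0.625 CPM in NGFC cells. The OPC libraries ran from 7.39 to 56.5 CPM and overlapped those of TH and SST cells. The highest TH library, hippocampal WT replicate 2 at 31.3 CPM, held 3 Dcc UMIs, and the median over TH libraries was 5.82 CPM.

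**Figure D2:**
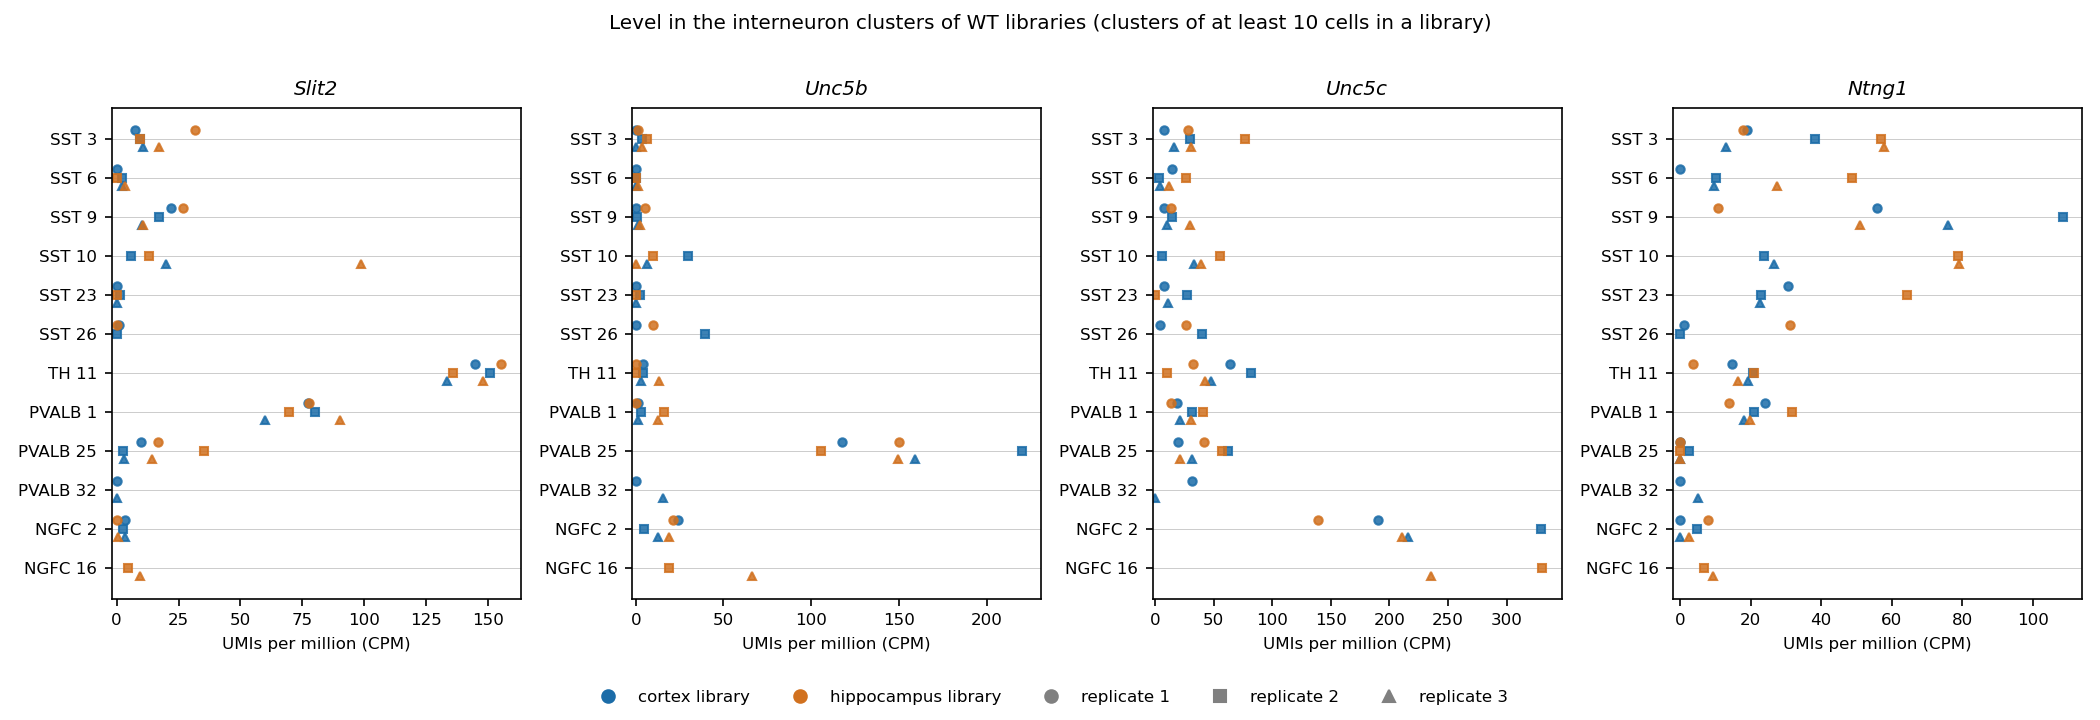
Level of Slit2, Unc5b, Unc5c and Ntng1 in CPM (horizontal axes) in the interneuron clusters, with a point for each WT library with at least 10 cells in the cluster. Slit2 points of the TH cluster lie between 133.5 and 155.4 CPM, and Unc5b points of PVALB cluster 25 between 105 and 219.9 CPM.

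The classes were compared within WT libraries on sums per library, with the library as a block, using the quasi-likelihood test of edgeR and p values adjusted by Benjamini-Hochberg over all genes tested. SST cells include TH cells in these tests. A gene passed at an adjusted p under 0.01 and a log2 difference of at least 0.144 in size. Slit1, Slit3, Ntng2 and Dcc fell below the low-count filter of these fits, and the remaining 6 genes were tested, of which some may have passed the filter through the class where they are high. In PVALB minus SST, 3 of 6 passed, against 23.3% of the 10209 genes tested. In NGFC minus SST 5 of 6 passed, against 24.7%, and in NGFC minus PVALB 4 of 6, against 24.4%.

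Slit2 in SST cells with TH cells had a lowest value of 15.8, a median of 25.2 and a highest value of 40.9 CPM over 6 WT libraries, against 53.7, 61.3 and 77.4 CPM in PVALB cells and 0, 2.71 and 4.70 CPM in NGFC cells. PVALB lay above SST in every library and NGFC below both. The log2 differences were 1.29 for PVALB minus SST (adjusted p 1.01e-07), -3.83 for NGFC minus SST (2.92e-09) and -5.12 for NGFC minus PVALB (9.59e-12). In hippocampal libraries alone PVALB minus SST was 1.14 and did not pass (0.0175).

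Unc5c values were 14.6, 25.5 and 54.6 CPM in SST, 19.4, 26.5 and 57.3 CPM in PVALB and 143, 214 and 331 CPM in NGFC cells (lowest, median, highest). NGFC lay above both other classes in 6 of 6 libraries and the SST and PVALB ranges overlapped. The log2 differences were 3.25 for NGFC minus SST (adjusted p 9.15e-13) and 2.99 for NGFC minus PVALB (4.09e-11), while PVALB minus SST did not pass (0.26, 0.273).

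Unc5b in SST had 0.894, 3.45 and 6.40 CPM, against 10.4, 36.1 and 53.1 in PVALB and 4.72, 19.6 and 26.3 in NGFC cells. PVALB lay above SST in 6 of 6 libraries with no overlap, while the NGFC and SST ranges overlap between 4.72 and 6.40 CPM although NGFC was higher within each of the 6 libraries. The log2 differences were 3.32 (adjusted p 1.33e-08) and 2.45 (1.02e-05) over SST. NGFC minus PVALB gave -0.87 and did not pass (0.0286). With clusters 25 and 32, which have Pthlh among their 10 most specific genes, left out of PVALB and the Chodl-led cluster left out of SST, a choice made after the data were seen, the PVALB difference over SST was 0.53 with an adjusted p of 0.477.

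Ntng1 in SST cells had 16.8, 33.1 and 64.0 CPM, in PVALB cells 8.86, 17.1 and 20.3, and in NGFC cells 0, 3.65 and 7.71 CPM. NGFC cells were below SST in all 6 libraries and below PVALB in all 6, with no overlap in either comparison, while PVALB and SST ranges overlap. The log2 difference was -3.26 for NGFC minus SST (adjusted p 3.27e-08), -2.30 for NGFC minus PVALB (5.36e-05) and -0.96 for PVALB minus SST (0.000406). The last did not pass without cortical WT replicate 2 (-0.91, adjusted p 0.0108), with DESeq2 (-0.965, 0.0113), with no library block (-1.05, 0.0675) or, at -0.44, with both Gad genes required for an interneuron name (0.236). In hippocampal libraries alone NGFC minus PVALB was -1.71 and did not pass (0.0133). Robo1 fell by 1.59 log2 in NGFC minus SST (adjusted p 1.73e-05) and by 1.55 in NGFC minus PVALB (8.16e-05), with 2.57, 16.2 and 29.0 CPM in NGFC, 33.0, 37.8 and 54.1 in SST and 17.7, 38.3 and 46.7 in PVALB cells. With cortical libraries only, Robo1 in NGFC minus SST was smaller, at -0.76, and did not pass (0.0179). The NGFC and SST values of Robo1 do not overlap, and the NGFC and PVALB values do. Robo2 passed in none of the 3 comparisons, with log2 differences of -0.19, -0.08 and 0.11.

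Values without overlap between classes were found for 2 of 6 tested genes in PVALB minus SST (4.74% of all genes tested), 4 of 6 in NGFC minus SST (7.44%) and 3 of 6 in NGFC minus PVALB (5.75%). Slit1 and Dcc, which were not tested, also lay below SST in NGFC cells without overlap, at 0 to 3.86 and 0 to 1.53 CPM. Their counts are low, and the fit gave no p for them.

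The wider pathway list held 33 genes, of which 25 were tested between classes. In PVALB minus SST 7 rose and 3 fell (23.3% of all genes tested passed), in NGFC minus SST 6 rose and 4 fell (24.7%), and in NGFC minus PVALB 5 rose and 4 fell (24.4%). Of 4 receptors tested, 2, 3 and 2 fell in the 3 comparisons and 0 rose, counts too small to describe receptors as a group. Dscam, a netrin co-receptor, fell by 2.82 in PVALB minus SST and by 4.29 in NGFC minus SST, with 25.7 to 54.9 CPM in the SST sums, 2.95 to 12.9 in PVALB and 0 to 4.72 in NGFC. The log2 changes of Unc5a, an Unc5 receptor, were -1.96 in NGFC minus SST and -1.85 in NGFC minus PVALB. Neo1, the receptor of RGM ligands, fell by 0.86 and 1.04 against SST in PVALB and NGFC. Flrt2, a ligand of Unc5 receptors, was 1.04 higher in NGFC minus SST and 1.23 higher in NGFC minus PVALB on the log2 scale, and Lrrc4c, the partner of netrin-G1, was 0.93 higher in PVALB minus SST and changed by -1.05 in NGFC minus PVALB. Of 11 effectors tested, 3 passed in PVALB minus SST and 3 in NGFC minus SST, each of them upward, with Srgap1 0.54 and 1.08 higher, and in NGFC minus PVALB 3 rose and 1 fell. Against the shares of all genes above, these counts were not tested. Enah, Fyn, Trio, Gpc1, Lrrc4, Flrt1, Flrt3 and Ntn4 made up the rest of the genes that passed.

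Between regions, hippocampus minus cortex was tested in the 6 WT libraries. No gene of the 10 passed in SST cells (9 tested, against 0.0417% of genes), PVALB cells (6 tested, against 0.0341%) or NGFC cells (4 tested, against 0%), by edgeR's quasi-likelihood test, and DESeq2 gave 0 as well. At an unadjusted p under 0.05, 3 of 9, 2 of 6 and 0 of 4 were found, and of all genes 888 of 11984, 376 of 8787 and 210 of 7866. Over all genes edgeR passed 5, 3 and 0 and DESeq2 134, 26 and 4. With 1 library left out, edgeR passed 0 to 5 in SST cells and 0 in PVALB and NGFC cells whichever library it was. With the replicate number as a block, the genes that passed numbered 339, 51 and 16 (2.83%, 0.580% and 0.203%), again with 0 of the 10. Among the 10, the lowest adjusted p of edgeR's quasi-likelihood test with this block was 0.0181 in SST, 0.0401 in PVALB and 0.628 in NGFC cells.

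Unc5b had the lowest adjusted p of the region tests without the block, in SST cells, with 0.948, 3.23 and 0.894 CPM in cortex and 3.68, 6.40 and 4.90 CPM in hippocampus. The hippocampal values all lay above the cortical ones. The log2 difference was 1.55 (edgeR without the block, adjusted p 0.499). With the block the lowest adjusted p of edgeR among the 10 genes in SST cells was 0.0181. The level carried by oligodendrocyte markers, given above for these sums, was higher in 2 of the 3 hippocampal libraries than in any cortical one. In hippocampal replicate 3, at 1.89 CPM, it lay below the 2.13 CPM of cortical replicate 2. With the marker level taken off, 0.132, 1.098 and -0.057 CPM were left in cortex and 0.578, -1.233 and 3.003 CPM in hippocampus, values that overlap. The part of these markers in the Unc5b difference was not tested. In PVALB cells Robo2 was at 101.5, 122 and 129 CPM in cortex and 73.8, 69.9 and 69.2 CPM in hippocampus, a log2 difference of -0.73 (edgeR without the block, adjusted p 0.736). The cortical libraries were all above the hippocampal ones. With the block the lowest adjusted p of edgeR among the 10 genes in PVALB cells was 0.0401. In NGFC cells Robo1 was at 16.4, 16.5 and 29.0 CPM in cortex and 2.57, 16.0 and 11 CPM in hippocampus, a log2 difference of -1.02 (adjusted p 1). Values without overlap were found for 1 of 9 genes in SST (12.9% of all genes tested), 1 of 6 in PVALB (9.00%) and 1 of 4 in NGFC cells (6.61%), and these counts of 1 were not tested against that background. Slit3, which was not tested in NGFC cells, was also apart there, at 0, 0 and 1.53 CPM in cortex and 6.43, 1.88 and 4.20 CPM in hippocampus, with at most 1 UMI in a cortical library. Unc5b in PVALB cells was at 12.0, 37.1 and 10.4 CPM in cortex against 53.1, 52.0 and 35.2 CPM in hippocampus, higher there within each replicate number. The ranges overlapped through cortical replicate 2, and the log2 difference was 1.22. Cluster 25 held 10.8, 13.5 and 4.73% of the cortical and 29.4, 45.5 and 14.5% of the hippocampal PVALB cells, so its share moved with that value, and their part in it was not tested.

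Of the 33 pathway genes, 27, 20 and 19 were tested between regions in SST, PVALB and NGFC cells, and 0 passed without the block by edgeR's quasi-likelihood test, while DESeq2 passed 1 higher and 1 lower in hippocampal SST cells. With the replicate block 3 of 27 passed in SST cells, against 2.83% of all genes, and 1 of 20 in PVALB cells, against 0.580%. Ntn1, the netrin-1 ligand, was at 6.83, 25.5 and 10.3 CPM in cortical and 0, 0.49 and 1.90 CPM in hippocampal SST cells, a block log2 difference of -3.72 (adjusted p 0.000202). Unc5d, a further netrin receptor, was at 42.9, 73.5 and 38.9 against 368, 175 and 160.5 CPM, a difference of 2.07 (0.00080). Every hippocampal library lay apart from the cortical ones for these genes. The mix of SST clusters differed between regions: cluster 23 held 5.26, 11.4 and 3.70% of the cells in cortex and 0.340, 2.52 and 0.280% in hippocampus, and cluster 10 held 1.44, 8.81 and 6.22% and 2.04, 64.0 and 11.8%. The part of this mix in the pathway genes was not tested. Lrrc4c differed by 0.98 in SST (0.00443) and Unc5d by 1.24 in PVALB cells (0.00331).

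Genotype was compared as null minus WT within each class and region, with 3 WT and 2 null libraries, except that cortical NGFC cells had 1 null library because the other held 5 cells and was left out. That lone library is assumed to vary like the other groups. None of the tested genes passed by edgeR's quasi-likelihood test in any of the 6 comparisons, and none by DESeq2. The count was 0 of 9 in cortical SST, 0 of 9 in hippocampal SST, 0 of 7 in cortical PVALB, 0 of 7 in hippocampal PVALB and 0 of 4 in NGFC cells of each region. The background was 0% in all but cortical PVALB cells, where 2 genes passed (0.0207%). With the replicate block 0 of the 10 passed in each, and 6 of all genes in cortical PVALB cells (0.0620%). At an unadjusted p under 0.05 there was 1 gene of the 10, Ntng1 in hippocampal PVALB cells. It was at 8.86, 19.7 and 16.4 CPM in WT and 11.7 and 6.32 CPM in null libraries, ranges that overlap, and is named after its values were seen. Over all genes 274, 475, 358, 298, 138 and 313 had an unadjusted p under 0.05 in that order of comparisons, and DESeq2 passed 2, 2, 12, 1, 0 and 1.

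Grin1 itself, the deleted gene, had log2 changes of -2.74, -2.75, -2.54, -2.83, -2.12 and -2.47 and adjusted p values of 0.0270, 0.0268, 0.0218, 0.0627, 1 and 0.405 in the same order, so that it did not pass in edgeR. In DESeq2 Grin1 passed in 5 of the 6. An adjusted p that misses the threshold does not show that levels of the guidance genes are the same in both genotypes.

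Values without overlap between null and WT were found for 2 of 9 genes in cortical SST (16.0% of all genes), 3 of 9 in hippocampal SST (17.6%), 3 of 7 in cortical PVALB (20.0%), 0 of 7 in hippocampal PVALB (14.2%), 1 of 4 in cortical NGFC with its 1 null library (40.6%) and 1 of 4 in hippocampal NGFC (19.2%). With at most 9 genes in a comparison, these counts were not tested against the background. In cortical PVALB cells Slit2 was at 66.4, 66.7 and 55.1 CPM in WT and 39.5 and 45.9 in null libraries, a log2 change of -0.51 (adjusted p 0.999), and Ntng1 at 20.3, 17.6 and 16.7 against 14.4 and 11.7 CPM, a change of -0.55. Both null libraries lay below all WT libraries. Clusters 25 and 32, the PVALB clusters with Pthlh among their 10 most specific genes (here Pthlh clusters), made up 29.6% and 23.7% of the cortical PVALB cells of null replicate 2 and 3.70% and 22.2% of those of null replicate 1. In the WT libraries cluster 25 held 10.8, 13.5 and 4.73% and cluster 32 7.19, 1.78 and 2.74%. With the Pthlh clusters left out, a choice made after the data were seen, the changes of Slit2 and Ntng1 were 0.13 and 0.16, so both changed direction. In cortical PVALB cells as first defined, Slit3 had a change of -0.84, with 9.23, 10.5 and 9.44 CPM in WT and 3.59 (1 UMI) and 5.85 CPM in null libraries. With the Pthlh clusters left out it was -0.02. In cluster 1 alone Slit3 was at 10.9, 12.2 and 10.3 CPM in WT and 4.797 (1 UMI) and 12.6 CPM in null libraries, values that overlap.

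In cortical SST cells the level of Ntng1 was 23.3, 36.6 and 29.6 CPM in WT and 16.7 and 23 in null libraries, a log2 change of -0.53, and Dcc was at 1.90, 2.77 and 2.61 CPM against 5.55 and 3.17 CPM, a change of 0.64. Neither passed. The mix of clusters differed here too: cluster 23 held 5.26, 11.4 and 3.70% of the cells in WT and 2.73 and 20.5% in null libraries, and cluster 26 held 36.2% in WT replicate 1 and at most 6.36% in the others. With cluster 23 left out of SST, a choice made after the data were seen, the changes were -0.54 for Ntng1 and 0.76 for Dcc, and the part of the other clusters was not tested. In hippocampal SST cells Slit1 changed by 0.43, from 4.73, 5.91 and 6.80 to 8.65 and 7.45 CPM, Slit3 by -0.86, from 5.78, 5.41 and 6.26 to 2.36 and 3.52 CPM, and Unc5b by -0.80, from 3.68, 6.40 and 4.90 to 3.14 and 2.72 CPM. Median UMIs per hippocampal SST cell were 6094, 1893 and 10738 in WT and 12159 and 15152 in null libraries. Hippocampal PVALB and NGFC cells were likewise deeper in both null libraries than in every WT one. Depth and genotype cannot be told apart in these hippocampal comparisons. Cluster 6 held 2.04, 8.50 and 23.0% of the hippocampal SST cells in WT, none in null replicate 1 and 20.1% in null replicate 2, cluster 10 held 2.04, 64.0 and 11.8% in WT and 15.1 and 5.91% in null libraries, and the part of this mix in the 3 hippocampal changes was not tested. Some of these null values rested on few UMIs: cortical null replicate 1 held 15 UMIs of Ntng1 and 5 of Dcc, and hippocampal null replicate 1 held 11 of Slit1, 3 of Slit3 and 4 of Unc5b. The Unc5b level that the oligodendrocyte markers carry in hippocampal SST cells was 2.66 and 1.45 CPM in the null libraries, against 3.10, 7.63 and 1.89 CPM in WT, and its part in the Unc5b change was not tested. In hippocampal NGFC cells Unc5b was at 21.9, 18.8 and 20.4 CPM in WT and 2.93 (2 UMIs) and 15.4 CPM in null libraries, a change of -0.88 (adjusted p 0.957). The level that the oligodendrocyte markers carry was 2.78, 12.7 and 1.08 CPM in WT and 0.237 and 1.47 CPM in null libraries. With it taken off, 19.1, 6.08 and 19.3 CPM were left in WT and 2.69 and 13.97 CPM in null libraries, values that overlap through WT replicate 2 alone. The part of these markers in the Unc5b change was not tested. In cortical NGFC cells Robo1 was at 16.4, 16.5 and 29.0 CPM in WT and 16.3 in the 1 null library, with a change of -0.41. With replicates 1 and 2 only, chosen after the data were seen, the change was 0.003 and so turned its direction. Slit2, which was not tested there, was also apart, at 3.28, 2.36 and 3.05 CPM in WT and 1.81 CPM in the null library, on 1 to 2 UMIs each.

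No member's null minus WT change differed between regions past the thresholds: in the interaction test by edgeR 0 of 9 genes passed in SST, 0 of 7 in PVALB and 0 of 4 in NGFC cells, with 0 at an unadjusted p under 0.05, and DESeq2 passed 0 genes of the genome in each. Over all genes, 56, 109 and 38 had an unadjusted p under 0.05 in edgeR. Of the 33 pathway genes, 28, 24 and 23 were tested for genotype and none passed.

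**Figure D3:**
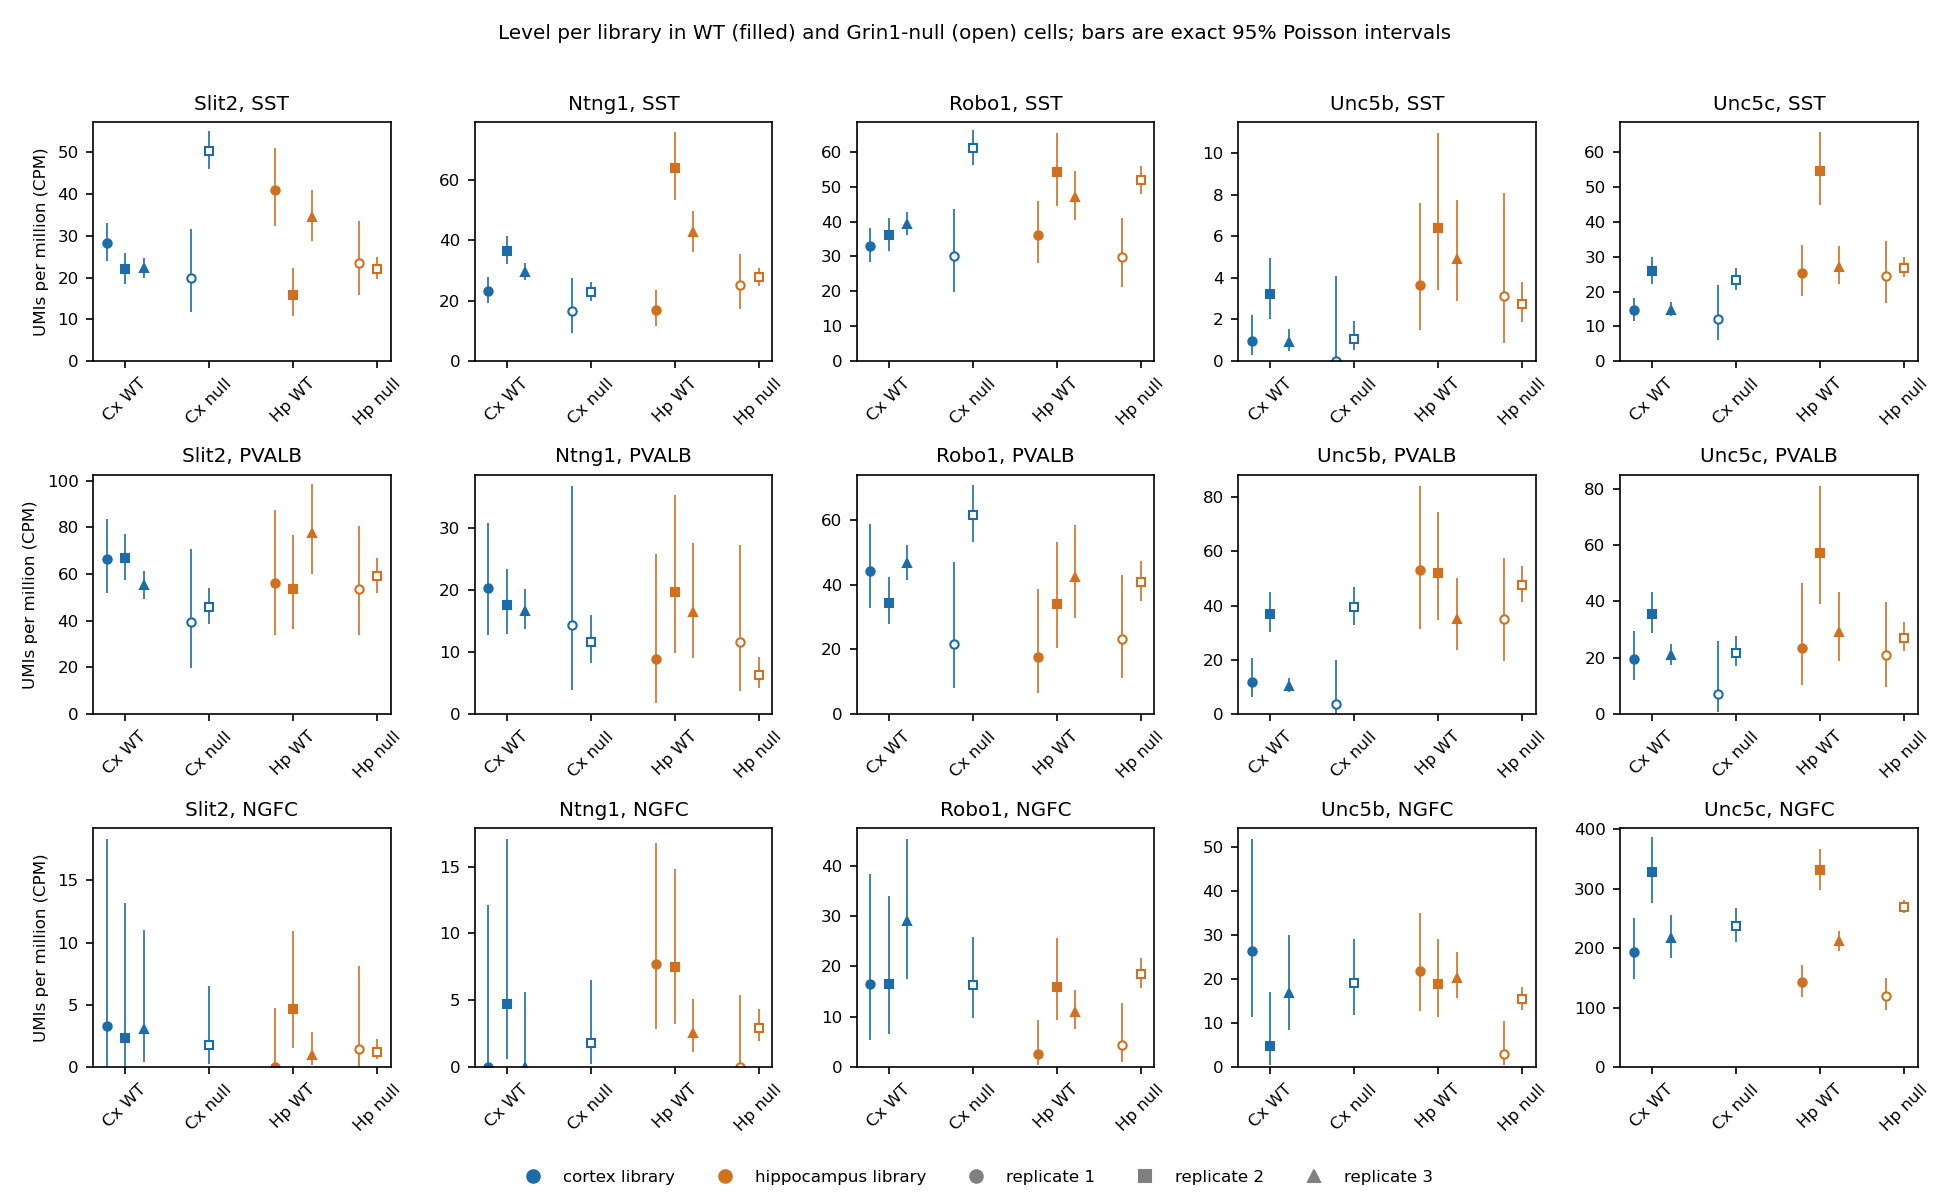
Level of Slit2, Ntng1, Robo1, Unc5b and Unc5c in CPM in SST (with TH), PVALB and NGFC cells of each library, WT filled and null open, with exact Poisson 95% intervals. Slit2 in cortical PVALB cells lies at 55.1 to 66.7 CPM in WT and 39.5 to 45.9 CPM in null libraries.

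One value outside the planned comparisons was noticed after the values were seen and was not tested: Unc5b in oligodendrocytes was at 158, 171, 179, 173, 162 and 149 CPM in the WT libraries and 124, 100.2, 119.9 and 128 CPM in the null libraries. All null libraries lay below all WT libraries, as they did for 0.679% of the 10754 genes with at least 10 UMIs in at least 4 libraries, while null and WT libraries lay apart in either direction for 1.52%. Within the 8 oligodendrocyte clusters Unc5b was lower in null than in WT cells in 7. In cluster 0, the largest, it was at 157 CPM in WT (exact Poisson 95% interval 147 to 168) and 100.1 CPM in null cells (93.3 to 107), and in cluster 4 at 203.7 (193 to 215) and 144 CPM (135 to 153). In cluster 8 it was at 193 (180 to 207) and 148 CPM (137 to 159). Of the 7, only these 3 clusters had intervals that do not overlap, while those of clusters 5, 14, 19 and 21 overlap. The intervals cover counting error of UMIs pooled over libraries and not the spread between libraries, so their overlap is no test of genotype. In cluster 13, with 23 null cells, it was higher in null, at 178 (57.7 to 415) against 147 CPM (128 to 168). Null oligodendrocytes were deeper than WT ones in every cluster except cluster 13. Median UMIs in null and WT cells were 7447 and 4541 in cluster 0, 10432 and 6929 in cluster 4, 6020.5 and 1303 in cluster 5, and 1137 and 1970 in cluster 13. With cells thinned to 1000 UMIs the share of cells with Unc5b was lower in null than in WT in 5 of the 8 clusters, among them cluster 0 (10.3% against 14.1%), cluster 4 (13.3% against 20.2%) and cluster 8 (14.9% against 17.9%), and higher in null in clusters 13, 14 and 19.

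By the rule set for naming genes, the genes whose levels were most like each member over the 34 clusters with at least 50 WT cells were found among 13119 genes. Clusters share libraries and differ in depth, so the correlations are descriptions. The most alike by Pearson's r of log2 CPM were Gpr123 (0.933), Kalrn (0.928) and Hecw1 (0.927) for Robo2, Mmp17 (0.884), Bcl11a (0.872) and Nell1 (0.872) for Ntng1, AI504432 (0.874), Wnk3 (0.873) and Hectd2 (0.871) for Robo1, and Galnt6 (0.871), Sept4 (0.856) and Tspan2 (0.854) for Unc5b. For Slit1 the first was Unc5a (0.867), for Slit3 Wipf3 (0.836), for Unc5c Phactr3 (0.769), for Slit2 Ccdc171 (0.724) and for Dcc Zfp748 (0.795). For Ntng2 it was Gm12094 (0.816). Slit1, Slit3, Dcc and Ntng2 are sparse, so their likenesses rest on few UMIs. Among pairs of the 10 genes the highest r was that of Robo2 and Ntng1 (0.769), and the lowest that of Ntng1 and Unc5b (-0.67).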

How the data were processed

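The deposited files hold unscaled UMI counts of 4 matrices, made by the authors with Cell Ranger (2.1.1 in the methods, 3.0.2 in the matrix headers) against mm10 with gene ends extended. Libraries were told apart by barcode suffix and matched to replicates by the cell numbers in the methods. The cell filter (200 to 6000 genes, mitochondrial share below 30%) left 26201 of 26987 cells. It fell mostly on null replicate 2. There 287 cortical and 265 hippocampal cells were over the mitochondrial limit, against at most 4 in a WT library. Cells under 200 genes numbered 242 and 169 there, and at most 14 in a WT library. Over 6000 genes were 114 cells of hippocampal null replicate 2 and at most 24 in any other library. Seurat 5.3.0 in R 4.3.3 joined the matrices with canonical correlation (25 dimensions) and made 35 clusters at resolution 1, with the 10 genes and 33 pathway genes left out of the 2000 variable features. Of these, 10 (4 of the 10 guidance genes) would otherwise be among them. A cluster was named where at least 3 markers of a class had 20 CPM or more and exceeded the average over clusters. Left unnamed were 2 clusters with markers but few UMIs, and cluster 17, where neither Gad1 nor Gad2 exceeded that average. Cluster 17 had 3818 CPM of Sst. It held 8.17% of the cells of cortical WT replicate 3 and at most 1.85% of any other library. The markers that make up the oligodendrocyte list are not reported here. The first rule asked that Gad1 and Gad2 both be high for an interneuron name. It was relaxed to 1 of them, and the cluster with Oxt, Avp, Isl1 and Lhx8 among its 10 most specific genes (404 cells, 0.022 to 2.98% of a library) was kept out, both after the clusters were seen. For each library the counts of a class were added up, sums of fewer than 10 cells being dropped, and edgeR 4.0.16 tested them by its quasi-likelihood test with TMM scaling and filterByExpr; DESeq2 1.42.0 was an alternative. Genotype was fitted over the 4 groups of region and genotype. Replicate numbers were checked as pairs between regions by correlating, over genes, the deviations of same-numbered WT libraries from the mean of their region: over the classes r was 0.225 to 0.788, so the replicate block is given for region. Cortical replicate 3 and hippocampal replicate 2 also gave r of 0.264, 0.111 and 0.209 in SST, PVALB and NGFC cells, the last close to the 0.225 of replicate 3 in both regions. Null and WT share only 2 numbers, with r of 0.22 to 0.337 for the deviations of replicate 1, so that block is among the alternatives. Intervals are exact Poisson for pooled UMIs and Wilson for shares of cells, at 95%, and cover counting error only. A floor is 3 UMIs. Python 3.11.15 with numpy 2.4.6, scipy 1.17.1 and pandas 2.3.3 did the rest. The fits were also run on simulated data, with an outcome that is not reported here, so that check lends no weight to the results. Members and lists were chosen with earlier results of these data known. All 10 genes are described by level, and a gene is named with its change where it passes, with or without the replicate block, or where library values do not overlap. The 3 most alike genes have the highest Pearson correlation of log2 CPM plus 1. Alternatives, some added after seeing the data, were other clusterings and names, scalings, filters, thresholds, doublet removal, blocks, subsets of libraries and each library left out. Positions are from GENCODE vM21 on GRCm38.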

Additional observations from a re-analysis of the deposited data

How the results depend on the processing

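In PVALB minus SST 3 passed, and 2 to 4 with a library left out. In NGFC minus SST 5 passed (5 to 6), and in NGFC minus PVALB 4 (4 to 6). With cortical libraries only, 5 passed in PVALB minus SST, and with no low-count filter 7 in NGFC minus PVALB; the cause was not tested. With the PVALB clusters that have Pthlh among their 10 most specific genes left out, a choice made after the data were seen, the null minus WT log2 changes in cortical PVALB cells were 0.13 for Slit2, 0.16 for Ntng1 and -0.02 for Slit3, against -0.51, -0.55 and -0.84. With replicates 1 and 2 only, also chosen after the data were seen, that of Robo1 in cortical NGFC cells was 0.003, against -0.41. Ntng1 in PVALB minus SST, at -0.96, no longer passed with DESeq2 (-0.965, adjusted p 0.0113), with no library block (-1.05, 0.0675), without cortical WT replicate 2 (-0.91, 0.0108) or with both Gad genes required, where it was also smaller in size (-0.44, 0.236). In hippocampal libraries alone Slit2 in PVALB minus SST (1.14 against 1.29, adjusted p 0.0175) and Ntng1 in NGFC minus PVALB (-1.71 against -2.30, 0.0133) did not pass, and in cortical ones Robo1 in NGFC minus SST (-0.76 against -1.59, 0.0179). With cells thinned to 1000 UMIs the pooled WT levels moved from 6.07 to 2.56 CPM for Slit1 and from 17.1 to 24.9 CPM for Ntng1 in PVALB cells, and from 142 to 160.6 CPM for Slit2 in TH cells. For region and genotype, 0 of the 10 genes passed under each alternative run. Cortical null replicate 1 holds 177 cells and hippocampal null replicate 1 401, so genes of a few CPM rest on single UMIs there.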
